A study of Mus musculus with 5 samples.

Results

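The genes described here are 10 genes that endothelial cells, the cells lining blood vessels, express: PECAM1, CDH5, CLDN5, EMCN, KDR, FLT1, TEK, TIE1, ENG and VWF. They were taken by symbol and were all found among the 13979 symbols shared by the 3 tables used, and 8 of the 10 had a mean over the libraries of at least 1. The levels come from RNA sequencing of LLC (Lewis lung carcinoma, a mouse lung cancer line) in 5 groups with 1 library each: Control, PAZA, BMN, BMN/PAZA_Low_dose and BMN/PAZA_High_dose. BMN is talazoparib, an inhibitor of the DNA repair enzyme PARP, and PAZA is a polymer carrier to which azacytidine, an inhibitor of DNA methyltransferases, is attached. In both BMN/PAZA groups BMN was loaded into this carrier, and the labels give the dose as low or high. All 5 groups share the same tumor line. The study's methods give the source as tumors taken from mice the day after dosing ended, but the labels give cultured cells treated for 72 h. Whether a library pools several animals is not given in the sources used here.

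All 10 endothelial genes, PTPRC of leukocytes and COL3A1 of fibroblasts were above 0 in every library, whereas 0 of 5 markers of lung epithelium were among the shared symbols. The deposited values appear to be FPKM, which divide fragments by transcript length and by library size, and each column was rescaled to sum to 1000000 over the shared symbols. These scaled values are called levels below and are per length, so genes can be compared with each other. The smallest steps of weakly expressed genes with a single exon imply a depth, in units of 1000000 fragments, of about 6.88 in Control, 6.58 in PAZA, 8.67 in BMN, 6.14 in BMN/PAZA_Low_dose and 6.18 in BMN/PAZA_High_dose. For the low dose this comes from the table it shares with BMN, because in the table with the high dose, from which its levels were taken, its values lie at 3.26 times those in the former and the same steps would give 1.91. From these steps, the number of fragments behind each level was estimated as an upper limit, and 95% counting intervals (Clopper-Pearson) of each ratio were computed. The true counting error is at least as wide as these intervals. Since no group has a replicate, an interval compares 2 libraries and not 2 treatments, and no p-value was computed. In bulk RNA, fewer endothelial cells and less RNA of a gene per cell cannot be told apart.

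Endothelial cells are joined by adherens junctions of VE-cadherin (CDH5) and tight junctions of claudin-5 (CLDN5), with PECAM1 and the sialomucin EMCN on their surface. VEGF, released by hypoxic tumor cells, drives vessel growth through its receptor KDR (VEGFR2), while FLT1 (VEGFR1) binds VEGF tightly and limits it. Angiopoietins act on the receptor TEK (TIE2), with TIE1 as its partner, to keep vessels stable. ENG is a co-receptor for BMP and TGF-beta ligands, and VWF is a secreted protein that tethers platelets. Several of these genes are not limited to endothelium: leukocytes and platelets also express PECAM1, megakaryocytes make VWF, and macrophages and stromal cells can express ENG and FLT1.

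The promoters of EMCN, TIE1 and FLT1 are printed because these genes show the 3 patterns described below: EMCN was highest with PAZA, TIE1 was higher in every treated library, and FLT1 was level across all 5 with the scaling used here. Each window runs from 250 bases before to 50 after a RefSeq start (GRCm38.p6), read 5′ to 3′ on the gene's strand. For EMCN and FLT1 this start lies inside the gene coordinates given below and not at their outer end. Capitals mark AGGAAG, a core of sites of the ETS family of endothelial transcription factors, or its reverse complement CTTCCT. The windows lie at chr3:137340828-137341127 on the plus strand (EMCN), chr4:118489800-118490099 on the minus strand (TIE1) and chr5:147725962-147726261 on the minus strand (FLT1).
EMCN: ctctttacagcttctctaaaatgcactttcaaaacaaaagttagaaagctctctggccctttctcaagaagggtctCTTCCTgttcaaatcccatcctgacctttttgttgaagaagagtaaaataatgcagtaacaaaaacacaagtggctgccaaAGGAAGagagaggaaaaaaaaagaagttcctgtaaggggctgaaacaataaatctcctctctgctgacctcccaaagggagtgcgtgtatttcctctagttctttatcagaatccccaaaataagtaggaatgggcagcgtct
TIE1: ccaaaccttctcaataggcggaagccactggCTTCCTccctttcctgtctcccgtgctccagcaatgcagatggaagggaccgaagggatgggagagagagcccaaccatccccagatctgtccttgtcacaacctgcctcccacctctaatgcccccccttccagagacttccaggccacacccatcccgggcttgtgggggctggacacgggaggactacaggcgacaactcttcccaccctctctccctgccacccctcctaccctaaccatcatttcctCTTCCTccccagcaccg
FLT1: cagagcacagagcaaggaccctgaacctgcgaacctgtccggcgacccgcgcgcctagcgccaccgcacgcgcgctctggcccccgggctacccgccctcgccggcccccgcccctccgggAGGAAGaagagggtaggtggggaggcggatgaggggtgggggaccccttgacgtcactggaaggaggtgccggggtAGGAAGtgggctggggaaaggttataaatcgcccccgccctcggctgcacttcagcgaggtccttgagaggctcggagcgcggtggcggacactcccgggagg

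Of the 10 genes, 7 were matched to a promoter in the RefSeq table, and CDH5, PECAM1 and VWF were not. AGGAAG on either strand was found in 4 of the 7 windows (EMCN, TIE1, FLT1 and ENG, 2 matches in each), against 35.4% of all 32851 windows of this length with at least 1 match and 8.62% with 2 or more. The letters TGTTTAC, a forkhead motif searched on both strands, were in 0 of the 7 windows and in 3.65% of all. CG dinucleotides, the sites of DNA methylation, numbered 2 in EMCN, 3 in TEK, 6 in ENG, 7 in TIE1, 12 in CLDN5, 19 in KDR and 29 in FLT1, beside a median of 7 over all windows. No methylation was measured here, and a match of letters is not a bound site.

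By mean level over the 5 libraries, the 10 genes ran in the order PECAM1 (19.9), EMCN (13.0), CDH5 (10.2), ENG (7.68), FLT1 (6.70), KDR (2.98), TIE1 (1.47), TEK (1.11), VWF (0.945) and CLDN5 (0.516). The summed level was 51.2 in Control, 78.1 in PAZA, 75.8 in BMN, 60.2 in BMN/PAZA_Low_dose and 57.4 in BMN/PAZA_High_dose. PECAM1 and EMCN made up much of that sum, and the single genes did not share 1 order of libraries. When the 5 levels of each gene were ranked, 8 of the 40 neighbouring pairs differed by more than the counting interval with this scaling. The matching share over all genes was not computed. By median-of-ratios or upper quartile scaling, PECAM1 in Control and at the high dose no longer differed beyond it. Nor did EMCN between the doses.

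**Figure D1:**
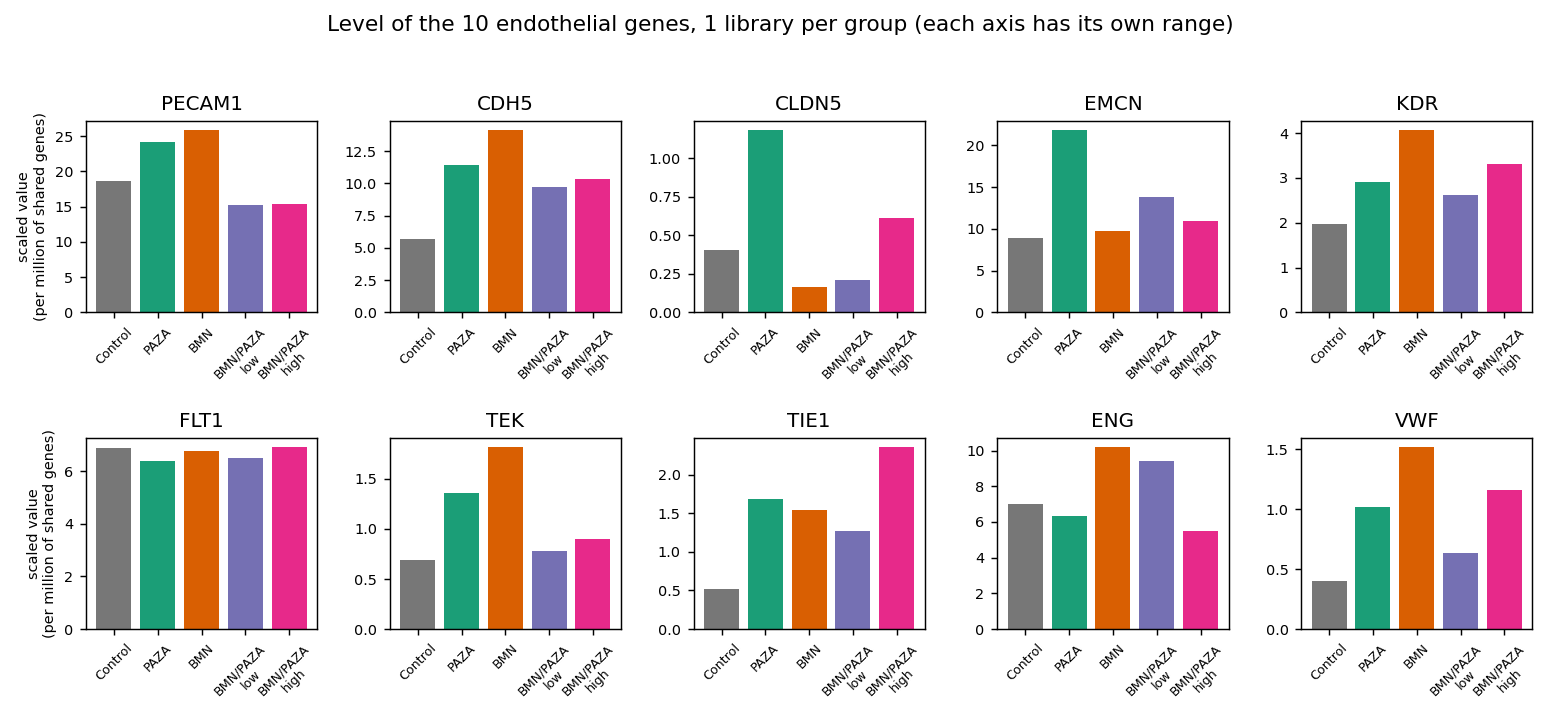
Bars give the scaled value (y axis, scaled to a library sum of 1000000, each panel with its own range) of the 10 endothelial genes in the Control, PAZA, BMN, BMN/PAZA_Low_dose and BMN/PAZA_High_dose libraries, 1 library each with no error bar. FLT1 lay between 6.40 and 6.92 throughout, whereas CDH5 was lowest in Control at 5.67 and EMCN highest in PAZA at 21.8.

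Among the junction and surface genes, CDH5 (chr8:104101613-104144504, GRCm38.p6, plus strand) had levels of 5.67 in Control, 11.4 in PAZA, 14.1 in BMN, 9.74 in BMN/PAZA_Low_dose and 10.3 in BMN/PAZA_High_dose. All 4 treated libraries were above Control. The ratio to Control was 2.01 in PAZA (1.54 to 2.64), 2.49 in BMN (1.94 to 3.22), 1.72 at the low dose (1.30 to 2.28) and 1.82 at the high dose (1.39 to 2.41), so each interval left out 1. These levels rest on at most 85.3 fragments in Control and at most 254 in BMN. Among the treated libraries, the 2 doses (ratio 1.06, 0.838 to 1.35) and PAZA against the high dose (1.10, 0.879 to 1.38) did not differ beyond counting error, whereas BMN was above PAZA (1.24, 1.02 to 1.51) with this scaling. By median-of-ratios the ratios to Control were 2.18 in PAZA and 2.32 in BMN, and by the upper quartile 2.25 and 2.36. The 2 libraries thus lay closer, and an interval between them was not computed under those scalings.

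PECAM1 (chr11:106654213-106715281, minus strand) had levels of 18.7 in Control, 24.1 in PAZA, 25.8 in BMN, 15.2 in BMN/PAZA_Low_dose and 15.4 in BMN/PAZA_High_dose. Both single agents were thus above Control and both combinations below it. The ratios to Control were 1.29 (1.08 to 1.53) for PAZA, 1.38 (1.17 to 1.63) for BMN, 0.813 (0.668 to 0.988) for the low dose and 0.824 (0.678 to 1.0) for the high dose. The last 2 intervals end at or just under 1, and with other scalings of the libraries they held 1. At the low dose the ratio was 0.873 (0.718 to 1.06) by median-of-ratios and 0.918 (0.755 to 1.12) by the upper quartile, and at the high dose it was 0.982 (0.808 to 1.19) and 0.993 (0.818 to 1.21). Because leukocytes also express PECAM1, its level was set against PTPRC (CD45), the pan-leukocyte surface phosphatase. PECAM1 over PTPRC was 0.511 in Control, 0.593 in PAZA, 0.562 in BMN, 0.564 at the low dose and 0.556 at the high dose, and PTPRC itself was 36.6, 40.6, 46.0, 27.0 and 27.7 in the same order. Of the 6 other leukocyte genes, ITGAM (57.3, beside 44.7 in Control), ITGB2 (60.9, beside 28.6) and the macrophage growth factor receptor CSF1R (18.0, beside 16.5) were highest in BMN with this scaling, as PECAM1 and PTPRC were. ITGAM in PAZA was almost the same (57.1). PECAM1 in BMN was not above PAZA beyond counting error (1.07, 0.924 to 1.25). By median-of-ratios its ratio to Control was 1.40 in PAZA and 1.29 in BMN, and by the upper quartile 1.44 and 1.31. CD68, of macrophages, was highest at the low dose (64.7, beside 49.1), S100A8, of neutrophils, at the high dose (132, beside 35.8), and CD3E, of T cells, in PAZA (2.32, beside 1.98). The part of leukocytes in the PECAM1 level was not tested.

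EMCN (chr3:137341062-137431069, plus strand; endomucin, found on capillary and venous endothelium) had levels of 8.88 in Control, 21.8 in PAZA, 9.81 in BMN, 13.8 in BMN/PAZA_Low_dose and 10.9 in BMN/PAZA_High_dose. PAZA stood highest and BMN next to Control. The ratio to Control was 2.45 in PAZA (1.97 to 3.06) and 1.55 at the low dose (1.22 to 1.98), while BMN (1.10, 0.864 to 1.42) and the high dose (1.22, 0.952 to 1.58) had intervals that held 1. The low dose lay above BMN (1.40, 1.12 to 1.75) and below PAZA (0.633, 0.521 to 0.766), and the high dose was below the low dose (0.790, 0.627 to 0.993). By median-of-ratios and the upper quartile, the interval between the doses held 1 (0.877, 0.697 to 1.10 and 0.843, 0.670 to 1.06). The high dose was then above Control (1.46, 1.13 to 1.88 and 1.48, 1.15 to 1.90).

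CLDN5 (chr16:18776847-18778262, plus strand) has 1 annotated transcript of 1416 bases, and its levels of 0.406 in Control, 1.18 in PAZA, 0.166 in BMN, 0.209 in BMN/PAZA_Low_dose and 0.614 in BMN/PAZA_High_dose rest on few fragments. In steps of the low dose value, corrected for the weight of a fragment in each library, they were 2.01 in Control, 6.004 in PAZA, 0.9993 in BMN and 2.991 at the high dose, and from transcript length they were 2.17, 6.35, 1.06, 1.06 and 3.15 fragments over the 5 libraries. They were read as 2, 6, 1, 1 and 3 fragments, on the assumption that the low dose level is 1 fragment. The ratio of PAZA to Control was 2.91 with an interval of 0.520 to 29.5, and that of PAZA to BMN, the highest level over the lowest, was 7.10 with an interval of 0.862 to 327. Both intervals held 1, so neither difference was detectable at this depth.

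The VEGF receptors differed from each other in how they varied. KDR (chr5:75932827-75979072, minus strand) had levels of 1.97 in Control, 2.91 in PAZA, 4.06 in BMN, 2.63 in BMN/PAZA_Low_dose and 3.31 in BMN/PAZA_High_dose. Every treated library was above Control, but only BMN (ratio 2.06, 1.44 to 2.99) and the high dose (1.68, 1.14 to 2.51) were so beyond counting error. PAZA (1.48, 0.991 to 2.22) and the low dose (1.34, 0.884 to 2.03) were not, and no neighbouring pair in the order of KDR levels was. KDR at the low dose was below BMN (0.649, 0.461 to 0.904) with this scaling. By median-of-ratios and the upper quartile that interval held 1 (0.745, 0.530 to 1.04 and 0.771, 0.548 to 1.07). KDR in PAZA was then above Control beyond counting error (1.60, 1.08 to 2.41 and 1.66, 1.11 to 2.49).

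FLT1 (chr5:147561604-147726438, minus strand) had levels of 6.90 in Control, 6.40 in PAZA, 6.78 in BMN, 6.52 in BMN/PAZA_Low_dose and 6.92 in BMN/PAZA_High_dose, on 161 to 211 fragments at most. The highest was 1.08 times the lowest, the narrowest range of the 10 genes. Its ratios to Control were 0.927 (0.746 to 1.15), 0.983 (0.802 to 1.21), 0.945 (0.759 to 1.18) and 1.0 (0.809 to 1.24) in PAZA, BMN, the low dose and the high dose. All 4 intervals held 1. The sign of the FLT1 difference in PAZA and in the low dose turned with both other scalings, which moved all genes together. The high dose against BMN was 1.02 (0.829 to 1.25) with this scaling. It was 1.30 (1.06 to 1.60) by median-of-ratios and 1.29 (1.05 to 1.59) by the upper quartile, so the level profile of FLT1 depended on the scaling.

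The angiopoietin receptors were weak. TIE1 (chr4:118471191-118489849, minus strand) had levels of 0.515 in Control, 1.69 in PAZA, 1.54 in BMN, 1.27 in BMN/PAZA_Low_dose and 2.36 in BMN/PAZA_High_dose, on at most 8.20, 27.2, 29.4, 19.2 and 36.2 fragments. All 4 treated libraries were above Control beyond counting error, with ratios of 3.29 (1.46 to 8.39), 3.0 (1.34 to 7.58), 2.46 (1.03 to 6.49) and 4.59 (2.10 to 11.4) in the same order. The width of these intervals follows from the few fragments in Control. The high dose was also above the low dose (1.86, 1.04 to 3.44).

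TEK (chr4:94739086-94874976, plus strand) had levels of 0.692 in Control, 1.36 in PAZA, 1.82 in BMN, 0.782 in BMN/PAZA_Low_dose and 0.898 in BMN/PAZA_High_dose. BMN was above Control (2.64, 1.35 to 5.54) and above both combinations, which stood at 0.429 (0.210 to 0.823) and 0.492 (0.252 to 0.916) of it. By median-of-ratios and the upper quartile, the interval of the high dose against BMN held 1 (0.628, 0.321 to 1.17 and 0.625, 0.319 to 1.16). The PAZA library (1.97, 0.948 to 4.33) was not above Control beyond counting error with this scaling. It was so with the other 2 (2.14, 1.03 to 4.70 and 2.21, 1.06 to 4.86). TIE1 over TEK, the ratio of the partner to the angiopoietin receptor, was 0.743 in Control (0.263 to 1.98) and 2.63 at the high dose (1.40 to 5.16), and these intervals overlap.

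ENG (chr2:32646595-32682669, plus strand) had levels of 7.02 in Control, 6.31 in PAZA, 10.2 in BMN, 9.39 in BMN/PAZA_Low_dose and 5.49 in BMN/PAZA_High_dose. BMN (1.45, 1.11 to 1.90) and the low dose (1.34, 1.01 to 1.78) were above Control, and PAZA (0.899, 0.659 to 1.23) and the high dose (0.782, 0.562 to 1.08) had intervals that held 1. The 2 doses of the combination differed most in this gene among those with at least 50 fragments in both, with the high dose at 0.585 of the low dose (0.427 to 0.796).

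VWF (chr6:125552948-125686679, plus strand) had levels of 0.397 in Control, 1.02 in PAZA, 1.52 in BMN, 0.631 in BMN/PAZA_Low_dose and 1.16 in BMN/PAZA_High_dose. Control was lowest, and the ratio to it was 2.58 (1.33 to 5.32) in PAZA, 3.84 (2.08 to 7.61) in BMN and 2.91 (1.51 to 5.97) at the high dose. The low dose was not above Control beyond counting error (1.59, 0.753 to 3.48), and it was below BMN (0.415, 0.237 to 0.697). For VWF, which megakaryocytes also make, the platelet markers are given beside it: 3 of 7 were found, and their summed level was 119 in Control, 185 in PAZA, 125 in BMN, 228 at the low dose and 193 at the high dose. Most of that sum was PF4 (107 in Control and 102 in BMN), whereas PPBP was 11.9 in Control and 23.1 in BMN, and GP1BA was 0.109 and 0.270. GP1BA rests on at most 1.11 fragments in Control and 3.30 in BMN, too few to tell the libraries apart. The part of platelets in VWF was not tested.

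**Figure D2:**
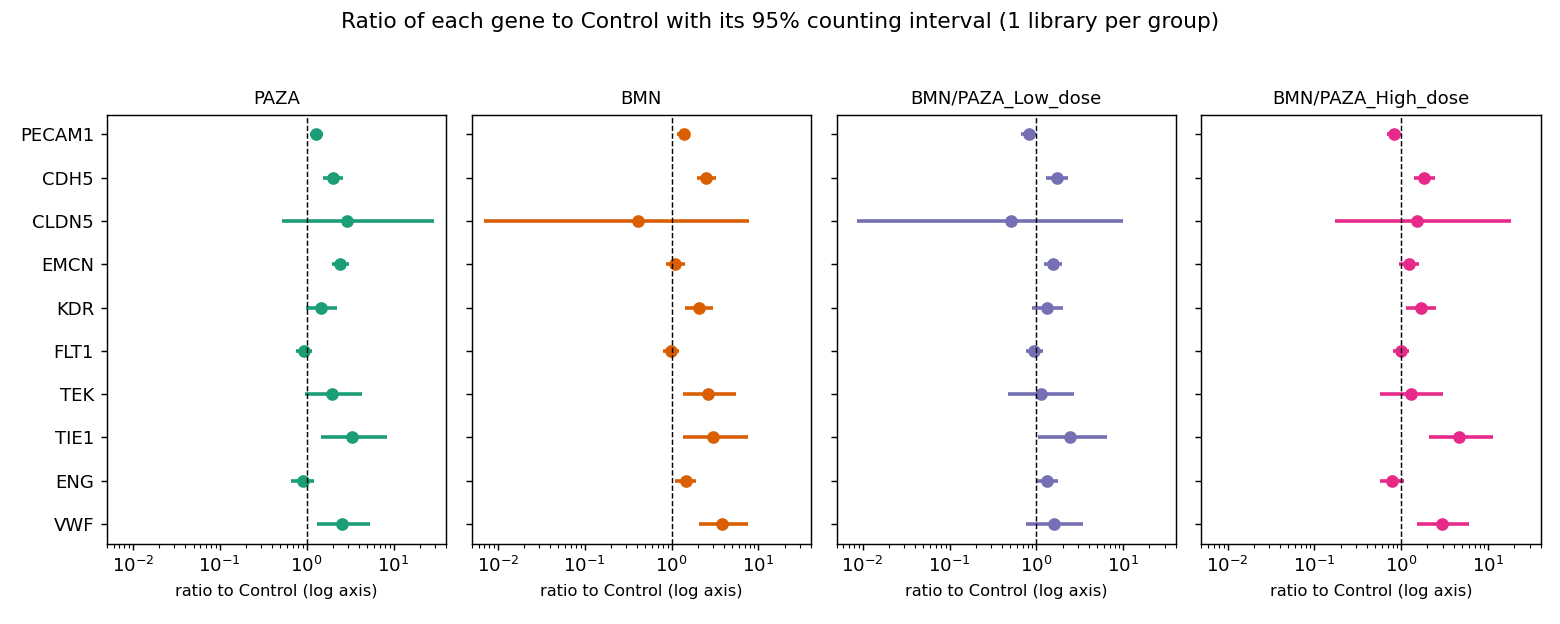
Points give the ratio of each gene's level to Control (x axis, log scale) in the PAZA, BMN, BMN/PAZA_Low_dose and BMN/PAZA_High_dose libraries, and lines give the 95% counting interval, which covers counting error only. CDH5 and TIE1 lie to the right of 1 in all 4 panels, FLT1 lies on it, and the interval of CLDN5 in PAZA runs from 0.520 to 29.5.

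Counted over the 10 genes, 8 were higher than Control in PAZA, beside 41.6% of the 11214 genes with a mean of at least 1. In BMN, 8 were higher, beside 60.0% of all genes. At the low dose 7 were higher, beside 43.2%, and at the high dose 8, beside 32.3%. All 4 comparisons share the same Control library. The median log2 difference, on log2(level + 1), was 0.51 in PAZA, 0.61 in BMN, 0.26 at the low dose and 0.23 at the high dose, beside medians over all genes of -0.10, 0.09, -0.08 and -0.22. At the high dose the median of the 10 genes was 0.39 by median-of-ratios, 0.40 by the upper quartile and 0.41 with a pseudocount of 0.1 in place of 1, and at the low dose it was 0.31, 0.35 and 0.41. Beyond counting error, 5, 7, 4 and 4 genes were above Control in PAZA, BMN, the low dose and the high dose, and 0, 0, 1 and 1 below it, the latter being PECAM1 with intervals that end at or just under 1. By the same criterion, 19.3%, 31.9%, 19.6% and 13.0% of 11085 genes with an annotated length were above Control and 34.8%, 16.9%, 33.3% and 43.1% below it. Genes with more fragments pass this criterion more readily, and the intervals hold for this scaling. By median-of-ratios and by the upper quartile, 7, 7, 4 and 5 genes were above Control under either, with KDR and TEK added in PAZA and EMCN at the high dose, and 0 were below it in any library. The shares of all genes above Control were then 25.6%, 24.0%, 25.2% and 24.7% by median-of-ratios and 28.7%, 26.0%, 29.6% and 25.9% by the upper quartile, and those below it were 27.7%, 23.8%, 26.8% and 25.9%, and 25%, 21.9%, 22.4% and 24.7%.

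At least 2-fold higher on the log2(level + 1) scale, which shrinks differences of low levels, was 1 of the 10 genes in PAZA (EMCN, beside 3.65% of all genes), 1 in BMN (CDH5, beside 4.99%), 0 at the low dose (beside 3.74%) and 1 at the high dose (TIE1, beside 3.34%). EMCN, CDH5, KDR, TEK, TIE1 and VWF were higher than Control in all 4 treated libraries, which is 6 of 10 genes beside 15.8% of all genes. With a pseudocount of 0.1 in place of 1, 4 genes were past 2-fold in PAZA (EMCN, CLDN5, TIE1 and VWF, beside 5.80% of all genes), 5 in BMN (CDH5, KDR, TEK, TIE1 and VWF, beside 7.56%), 1 at the low dose (TIE1, beside 6.07%) and 2 at the high dose (TIE1 and VWF, beside 5.51%), and the median in PAZA was 0.94. The same 6 genes were higher in all 4 libraries by median-of-ratios and by the upper quartile, beside 21.6% and 24.3% of all genes, and CDH5 joined the genes past 2-fold in PAZA and at the high dose by the upper quartile (2 of 10 in each, beside 5.08% and 5.20% of all genes). Counted by any amount, 9 and 10 genes were higher in PAZA by median-of-ratios and by the upper quartile, beside 50.8% and 54.1% of all genes. At the high dose 8 were higher under either, beside 50.6% and 51.9%, and at the low dose 8 under either, beside 51.3% and 56.8%.

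The combinations were then set against the single agents. Against BMN, 2 of the 10 genes were higher at the low dose (EMCN and CLDN5), beside 36.0% of all genes, with a median log2 difference of -0.32 beside -0.18 over all genes. By median-of-ratios and the upper quartile, that median of the 10 genes was -0.18 and -0.14, with all genes near 0. PECAM1, CDH5, KDR, TEK and VWF were lower beyond counting error (5 of 10, beside 41.5% of all genes), and EMCN was higher (1 of 10, beside 16.7%). At the high dose, 4 genes were higher than in BMN, beside 25.8%, and PECAM1 (15.4 against 25.8), CDH5 (0.734, 0.596 to 0.901), TEK and ENG (0.540, 0.400 to 0.722) were lower beyond counting error (4 of 10, beside 50.8%), with 0 higher (beside 9.89%). With median-of-ratios and upper quartile scaling, the higher genes numbered 4 under each at the low dose, beside 50.1% and 53.6% of all genes, and 5 under each at the high dose, beside 50.6% and 49.8%. Beyond counting error, 4 genes were then below BMN at the low dose by median-of-ratios (without KDR, beside 28.9% of all genes) and 3 by the upper quartile (without KDR and CDH5, beside 25.9%), and EMCN was above it under both (beside 26.8% and 29.5%). At the high dose, PECAM1 and ENG, but no longer CDH5 and TEK, were below BMN under both (beside 26.4% and 26.8%), and EMCN, FLT1 and TIE1 were above it (beside 25.1% and 24.7%).

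Against PAZA, 2 of the 10 genes were higher at the low dose (ENG and FLT1), beside 52.7% of all genes, and the median log2 difference was -0.28 beside 0.03 over all genes. PECAM1 (0.632, 0.525 to 0.760) and EMCN were lower beyond counting error (beside 20.3% of all genes), and ENG was higher (1.49, 1.11 to 2.0, beside 23.5%). Between the doses, 8 genes were higher at the high dose, beside 34.2% of all genes (50.2% by median-of-ratios and 43.8% by the upper quartile, with 8 genes under each). Only TIE1 and VWF (1.83, 1.03 to 3.33) were higher beyond counting error in that comparison (beside 11.9% of all genes), and EMCN and ENG were lower (beside 33.0%). By the other 2 scalings EMCN was no longer lower there (ENG alone, beside 20.4% by median-of-ratios and 24.7% by the upper quartile).

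Ratios between genes of 1 library do not depend on how the library was scaled. CDH5 over PECAM1 was 0.303 in Control (0.234 to 0.389), 0.473 in PAZA (0.391 to 0.572), 0.545 in BMN (0.464 to 0.640), 0.640 at the low dose (0.510 to 0.801) and 0.671 at the high dose (0.538 to 0.835). The interval of Control lay below those of all 4 treated libraries. FLT1 over CDH5 was 1.22 in Control (0.935 to 1.59), above the other four, which lay between 0.481 in BMN (0.399 to 0.580) and 0.669 at both doses (0.530 to 0.846 at the low dose and 0.534 to 0.838 at the high dose). In Control FLT1 was thus at about the level of CDH5, and in each treated library it was lower than CDH5.

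EMCN over CDH5 was 1.57 in Control (1.17 to 2.09), 1.91 in PAZA (1.58 to 2.32), 0.696 in BMN (0.566 to 0.853), 1.41 at the low dose (1.12 to 1.78) and 1.05 at the high dose (0.829 to 1.33). Only in BMN was EMCN below CDH5 beyond counting error. KDR over FLT1 was 0.286 in Control (0.201 to 0.399) and 0.598 in BMN (0.470 to 0.758), with 0.455 (0.336 to 0.609), 0.404 (0.292 to 0.551) and 0.479 (0.358 to 0.635) in PAZA, the low dose and the high dose. FLT1 exceeded KDR in every library. KDR over CDH5 moved less, from 0.255 in PAZA to 0.348 in Control.

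**Figure D3:**
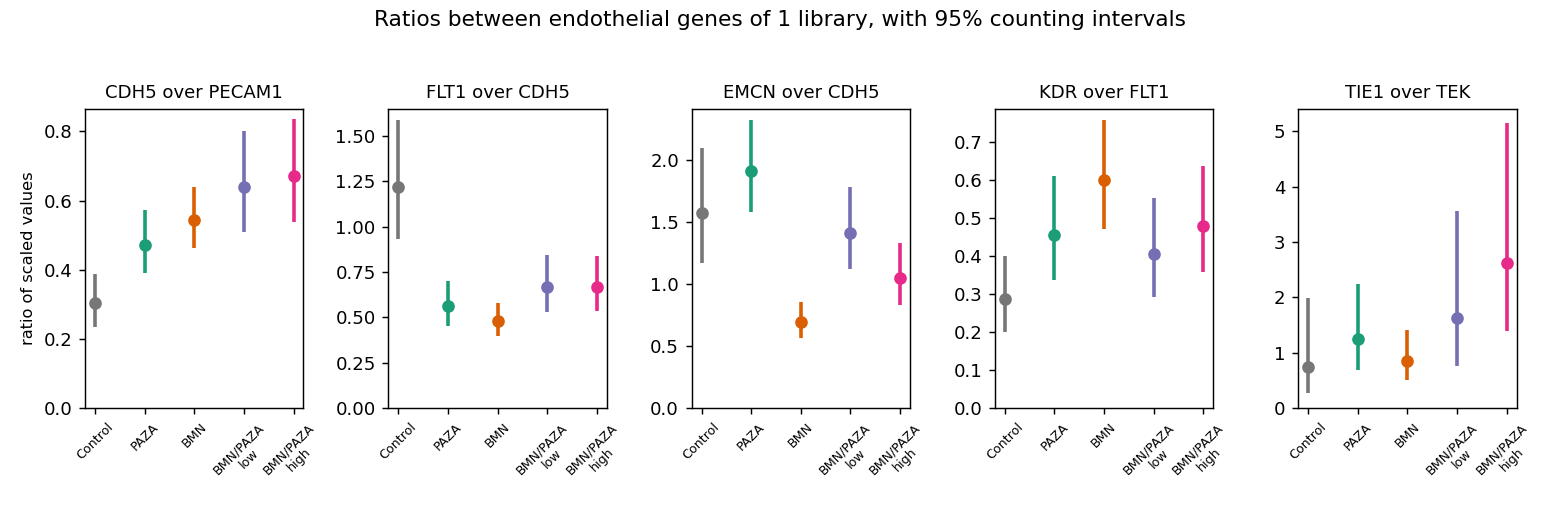
Each panel gives the ratio of the scaled values of 2 endothelial genes (y axis) in each of the 5 libraries (x axis), with lines for the 95% counting interval. Control is lowest for CDH5 over PECAM1 at 0.303 and highest for FLT1 over CDH5 at 1.22, and BMN is lowest for EMCN over CDH5 at 0.696.

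Other genes of endothelial cells were described with lists. Of 22 further genes expressed across endothelium, 16 were higher than Control in PAZA, 18 in BMN, 16 at the low dose and 19 at the high dose, beside 41.6%, 60.0%, 43.2% and 32.3% of all genes. Their median log2 differences were 0.26, 0.56, 0.21 and 0.19. CD34, a surface sialomucin of vessels that some fibroblasts also carry, was 19.3 in Control, 53.9 in PAZA, 49.7 in BMN, 22.8 at the low dose and 26.2 at the high dose. ADGRF5, an adhesion receptor, was 22.7, 28.1, 39.9, 30.8 and 23.9 in the same order. ECSCR, an endothelial surface regulator, was 19.3, 42.4, 26.6, 24.9 and 22.9, with PAZA highest as for EMCN. CD93, a surface lectin of endothelium and myeloid cells, was 18.3, 22.9, 32.5, 18.5 and 20.9. ICAM2, an endothelial adhesion molecule, was 2.28, 10.7, 4.61, 8.91 and 6.10, at least 2-fold above Control on the log2(level + 1) scale in 3 of the 4 treated libraries.

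Of 10 transcription factors of endothelium, 7, 9, 7 and 7 were higher than Control in PAZA, BMN, the low dose and the high dose (medians 0.34, 0.63, 0.13 and 0.14), beside 41.6%, 60.0%, 43.2% and 32.3% of all genes. ETS1 was level at 25.9 in Control, 23.1 in PAZA, 28.3 in BMN, 25.4 at the low dose and 22.6 at the high dose. FLI1, another ETS factor that leukocytes also express, was 8.25, 12.1, 15.8, 8.29 and 8.56 in the same order. KLF2, the factor that endothelium raises under flow, was 1.36, 3.22, 5.20, 4.97 and 6.25, and KLF4, which epidermis also uses, was 3.35, 4.13, 9.76, 2.74 and 1.71.

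VEGFA, the main ligand of KDR and FLT1, was 65.9 in Control, 47.0 in PAZA, 32.4 in BMN, 50.5 at the low dose and 33.6 at the high dose. With this scaling, its order of libraries was the reverse of that of KDR, whose neighbouring levels did not differ beyond counting error. By median-of-ratios and the upper quartile, KDR was higher at the high dose (2.0 and 2.03 times Control) than in BMN (1.92 and 1.96). That order of KDR thus depended on the scaling. ANGPT2, the angiopoietin released by activated endothelium, was 8.88, 14.3, 11.3, 5.90 and 9.83 in the same order. Of 8 ligands, 4, 5, 2 and 3 were higher than Control in PAZA, BMN, the low dose and the high dose, beside 41.6%, 60.0%, 43.2% and 32.3% of all genes, so as a list the ligands did not stand apart in these counts. Of the 8 VEGF co-receptors and Notch genes, 5, 7, 4 and 3 were higher, beside the same shares. The co-receptors NRP2 (46.7, 42.1, 60.7, 48.5 and 46.7) and NRP1 (17.2, 14.8, 29.3, 15.8 and 17.3) were both highest in BMN, where KDR was highest too with this scaling only.

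The BMP and TGF-beta genes around ENG had 2, 5, 3 and 1 of 7 members higher than Control in PAZA, BMN, the low dose and the high dose, beside 41.6%, 60.0%, 43.2% and 32.3% of all genes. TGFBR2, the type II receptor of TGF-beta, was 31.8 in Control, 24.9 in PAZA, 51.9 in BMN, 26.6 at the low dose and 27.7 at the high dose. ID1, a transcriptional target of BMP signals, was 26.6, 43.0, 38.7, 26.1 and 24.8. Of 8 tip cell and angiogenic genes, 6, 6, 5 and 5 were higher, beside the same shares. COL4A1, a basement membrane collagen, was near level at 220, 185, 230, 207 and 212. Of 7 arterial and venous genes, 6, 6, 5 and 2 were higher, again beside these shares. APLNR, the apelin receptor of venous and sprouting endothelium, was 0.715, 1.74, 3.20, 2.59 and 2.33, and NR2F2, a factor of venous identity also found in stroma, was 18.8, 12.9, 35.8, 14.3 and 17.1.

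Smaller lists are given as values. Of the lymphatic markers, PDPN (also a fibroblast and epithelial gene) was 53.0 in Control, 79.8 in PAZA, 58.2 in BMN, 56.0 at the low dose and 52.4 at the high dose. LYVE1, which macrophages also express, was 1.20, 3.88, 4.97, 1.92 and 3.77, and PROX1, the factor that defines lymphatic endothelium, was listed at 0 in Control and the high dose and was at most 0.254. Of the 4 leukocyte adhesion genes, VCAM1, ICAM1 and SELP had values that did not scale between tables like the other genes and are not described, and SELE, the adhesion molecule of inflamed endothelium, was 0.920, 3.14, 1.44, 2.47 and 2.06. The Control level of SELE rests on at most 10.1 fragments. GPIHBP1, which holds lipoprotein lipase on capillaries, was 6.10, 24.6, 12.4, 9.50 and 10.8. It was highest in PAZA, as were EMCN, ECSCR and SELE, whereas RAMP2, SHANK3, ADGRL4 and PODXL, expressed across endothelium, were lowest there. Of the 5 lung capillary genes, 3, 3, 4 and 2 were above Control in PAZA, BMN, the low dose and the high dose. The shares of all genes were 41.6%, 60.0%, 43.2% and 32.3%. TMEM100, listed with GPIHBP1, was 0.792 in Control and 0 in PAZA. CAR4, also counted, did not scale between tables.

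**Figure D4:**
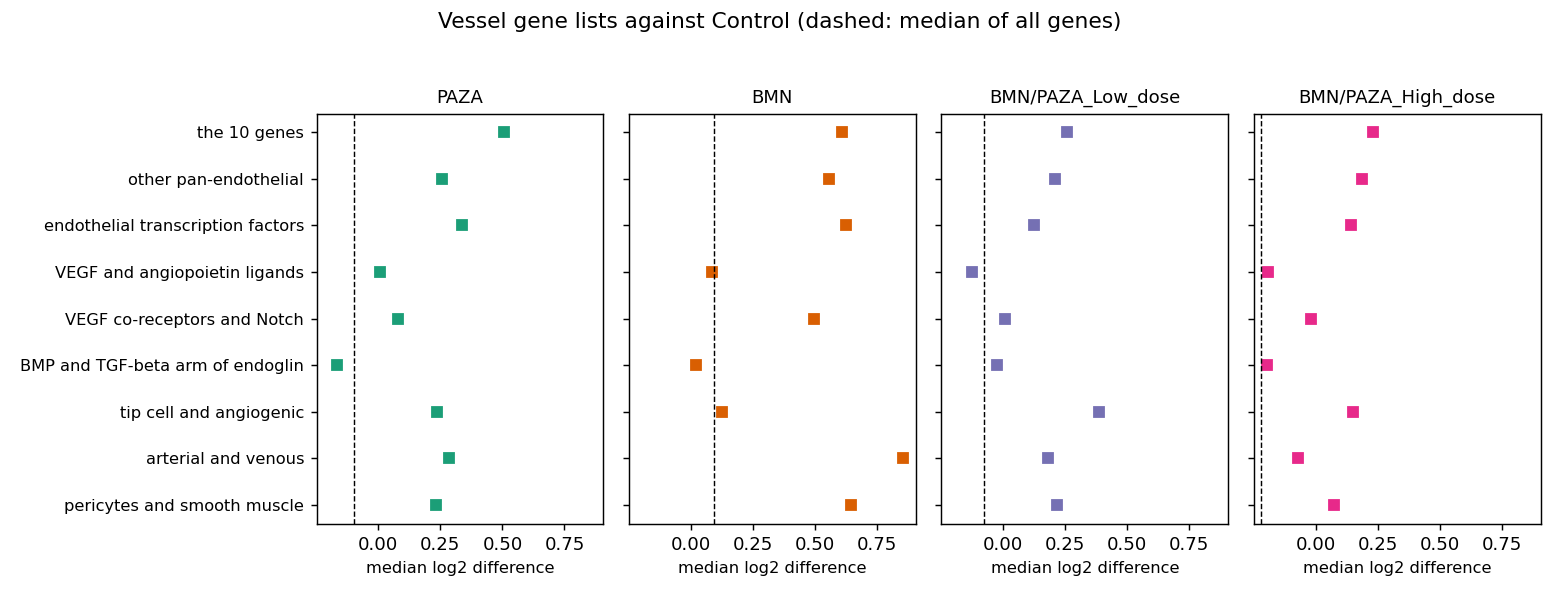
Squares give the median log2 difference from Control (x axis, on log2(level + 1)) of the 10 endothelial genes and of 8 other vessel lists in each treated library. The dashed line is the median of all 11214 genes, at 0.09 in BMN, where the list medians run from 0.02 for the BMP and TGF-beta genes and 0.08 for the ligands to 0.65 for pericyte and smooth muscle genes and 0.85 for arterial and venous genes, with the 10 genes at 0.61.

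Over all vessel lists, 91 genes were found and 33 were higher than Control in all 4 treated libraries, beside 15.8% of all genes, while 3 were lower in all 4, beside 22.1%. At least 2-fold above Control in 2 or more treated libraries were 5 of them (ICAM2, CD34, KLF2, APLNR and LYVE1), beside 3.66% of all genes. ACTA2, the actin of smooth muscle and myofibroblasts, was the one gene at least 2-fold lower in 2 or more, beside 3.64% of all genes, with 6.20 in Control, 10.1 in PAZA, 6.30 in BMN, 2.36 at the low dose and 1.91 at the high dose. Of the 10 pericyte and smooth muscle genes, 10, 10, 9 and 6 were higher than Control in PAZA, BMN, the low dose and the high dose, beside 41.6%, 60.0%, 43.2% and 32.3% of all genes. RGS5, the usual pericyte marker, was 7.0, 7.77, 15.7, 9.18 and 6.87 in the same order.

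Markers of other cell types differed between the libraries as well. The summed level of 6 fibroblast genes was 313 in Control, 534 in PAZA, 817 in BMN, 318 at the low dose and 350 at the high dose, and all 6 genes were higher than Control in PAZA, in BMN and at the high dose, with 3 of 6 higher at the low dose, beside 41.6%, 60.0%, 32.3% and 43.2% of all genes. That of 7 leukocyte genes was 213, 278, 271, 225 and 294, with 6, 5, 4 and 2 of the 7 higher than Control in PAZA, BMN, the low dose and the high dose, beside 41.6%, 60.0%, 43.2% and 32.3% of all genes. S100A8 alone was 132 of the 294 at the high dose, where CD3E, of T cells, was listed at 0. Adipocyte markers (5 genes) summed to 45.8, 114, 92.8, 55.9 and 66.7, skeletal muscle markers (7 genes) to 12.7, 64.1, 195, 11.3 and 220, and epidermal markers (4 genes) to 67.3, 8.0, 201, 1.84 and 12.4. Of the adipocyte genes, 4, 3, 3 and 3 of 5 were higher than Control in PAZA, BMN, the low dose and the high dose, beside 41.6%, 60.0%, 43.2% and 32.3% of all genes. Their sum was mostly FABP4 (42.8 in Control and 104 in PAZA), which capillary endothelium and macrophages also express. CFD, a complement protease that fat secretes, was 1.35 in Control, 9.13 in PAZA and 18.7 in BMN, and ADIPOQ, the adipocyte hormone adiponectin, was listed at 0 in Control and was 0.661 in PAZA and 0.739 in BMN. CIDEC, of lipid droplets, was 1.66 in Control, listed at 0 in PAZA and 0.335 in BMN. The PAZA and BMN libraries, which had the highest summed endothelial levels, also had the highest fibroblast sums, and the muscle sum was highest at the high dose and in BMN. Housekeeping genes (8) had median log2 differences from Control of 0.07 in PAZA, 0.01 in BMN, -0.05 at the low dose and -0.11 at the high dose. Among the muscle markers, CKM and TNNC2 were listed at 0 at the low dose. Whether the amount of surrounding tissue in a library has a part in the endothelial levels was not tested, and with 1 library per group it cannot be told apart from treatment.

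**Figure D5:**
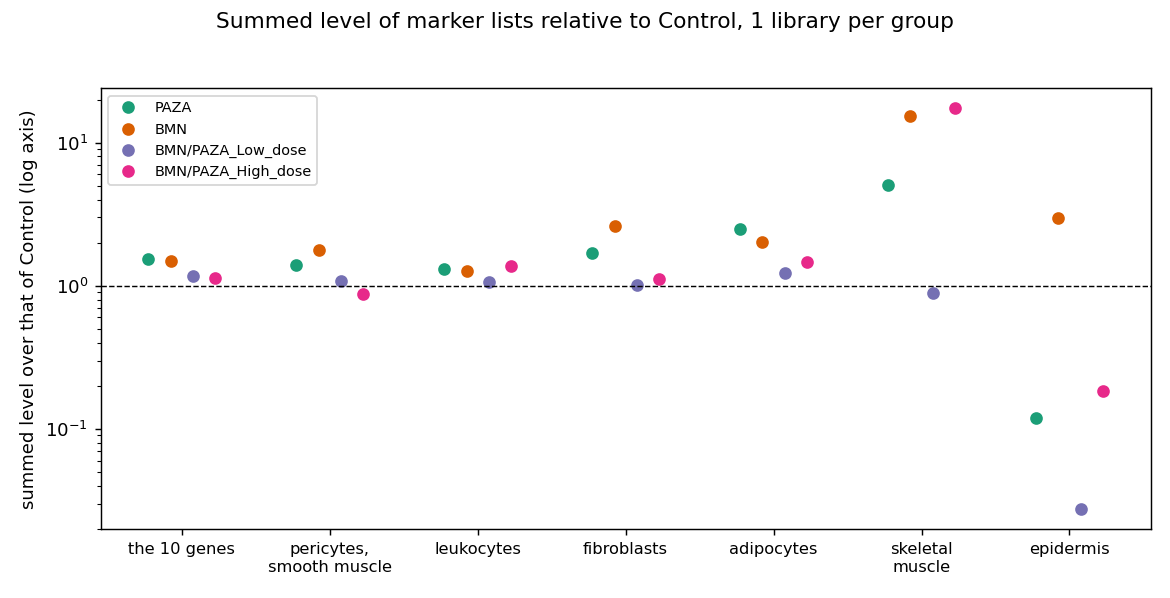
Points give the summed level of a marker list in each treated library over that in Control (y axis, log scale), for the 10 endothelial genes and 6 other cell type lists. The endothelial sum was 51.2 in Control and highest in PAZA at 78.1, while the muscle sum was 12.7 in Control, 11.3 at the low dose and 220 at the high dose.

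The genes whose profile over the 5 libraries came closest to the mean profile of the 10 genes were on none of the vessel lists. One of them was ITGB3, the integrin beta subunit of platelets and of growing endothelium. ITGB3 had levels of 1.57, 2.63, 2.48, 1.81 and 2.26 in Control, PAZA, BMN, the low dose and the high dose, at a root mean square distance of 0.0453 on the centred log2 scale. CPTP, a lipid transfer protein, came closest at 0.0352 (2.53, 3.95, 3.67, 2.93 and 3.23), followed by CIP2A, an inhibitor of the phosphatase PP2A, at 0.0384. PCMT1, TIGD2, GUSB, LRIF1 and GLRX5 completed the first 8. Of the 10 genes themselves, KDR and TEK lay closest to their common mean, both at 0.140, and ENG (0.335) and EMCN (0.367) farthest from it. The distances run over only 5 libraries.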

How the data were processed

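RNA was sequenced in 5 groups with 1 library each. The submitters' processing notes name HISAT2, StringTie and GRCm38, with versions not given in the sources used here. The authors deposited 5 tables of 2 groups each, with values whose unit is not named and which were read as FPKM. Sums and digits fit scaling by length and library, and the tables were scaled separately. The low dose column in the table with the high dose was 3.26 times that in the table with BMN, and the 10 genes lay within 0.016% of the median ratio of each pair of tables that share a library.

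Control and PAZA, BMN and the high dose, and the low dose were each taken from 1 table, keeping the row with the highest mean per symbol, and scaled to 1000000 over 13979 symbols. Fragments were estimated as value times the longest GENCODE vM21 transcript over the weight of 1 fragment, read from single-exon genes of at least 2000 bases. Differences used log2(level + 1), and a share of all genes refers to those with a mean of at least 1. Steps were tested on simulated data.

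Named were all 10 genes, up to 4 genes with the highest mean of each other list, vessel genes past 2-fold in 2 or more treated libraries and the 8 nearest profiles. PTPRC was named for its role, and CD3E and CSF1R after their values were seen. Some genes under this rule are given only by their list's count. The genes, lists and tests were chosen with earlier results of these data known. Alternatives were a pseudocount of 0.1, median-of-ratios and upper quartile scaling, summed rows, another table and no filter. Tables were handled with pandas 2.3.3 and numpy 2.4.6 in Python 3.11.15, intervals computed with scipy 1.17.1, and plots drawn with matplotlib 3.10.9.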

Additional observations from a re-analysis of the deposited data

How the results depend on the processing

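No paired analysis was possible because each group has 1 library. Of the 40 log2 differences of single genes from Control, 40 moved by less than 0.2 with another table of the library and 40 with summed rows, 35 under each other scaling, and 25 with a pseudocount of 0.1. Signs turned for FLT1 in PAZA (0.01 by median-of-ratios, 0.05 by the upper quartile) and at the low dose (0.02 and 0.08), and for ENG in PAZA (0.01 by the upper quartile).

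The median of the 10 genes at the high dose against BMN was -0.23 and turned to 0.0096 by median-of-ratios and 0.0046 by the upper quartile, scalings that raised the median of all genes from -0.31 to near 0. With a pseudocount of 0.1, which shrinks low levels less, the median became 0.94 for PAZA against Control and -0.51 for the low dose against PAZA. The genes past 2-fold then numbered 4 in PAZA, 5 in BMN, 1 at the low dose and 2 at the high dose against Control, 2 at the low dose and 1 at the high dose against BMN, 1 at the low dose against PAZA and 1 between the doses. The shares of all genes past 2-fold in either direction at that pseudocount ran from 11.4% to 13.7% against Control, and were 14.6% and 14.9% against BMN, 9.60% against PAZA and 9.93% between the doses. By the upper quartile, 2 genes were past 2-fold in PAZA and 2 at the high dose against Control, beside 7.53% and 8.27% of all genes past it in either direction, and the other counts past 2-fold under both scalings, also chosen after seeing the data, were those of the report. Leaving out CLDN5, TEK, TIE1 and VWF, an alternative chosen after seeing the data, gave medians against Control of 0.37, 0.46, 0.33 and 0.13 in PAZA, BMN, the low dose and the high dose. The counts beyond counting error under the other 2 scalings, given in the report, were also chosen after seeing the data.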
